A study of Mus musculus with 12 samples.

Results

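CC chemokines are small secreted proteins, named for a pair of adjacent cysteines, that draw leukocytes along a gradient by binding G-protein-coupled receptors of the Ccr family. Macrophages are a main source of them: Ccl2, Ccl7 and Ccl12 attract monocytes through Ccr2, Ccl3, Ccl4 and Ccl5 act on monocytes, T cells and other leukocytes, Ccl6 and Ccl9 are rodent ligands of Ccr1, and Ccl22 attracts T cells through Ccr4. Textbook accounts treat most of them as genes switched on by microbial signals, often through NF-kB, and treat Ccl6 and Ccl9 as genes that myeloid cells express without a stimulus. The 9 CC chemokine genes described here, Ccl2, Ccl3, Ccl4, Ccl5, Ccl6, Ccl7, Ccl9, Ccl12 and Ccl22, were taken by gene symbol from the 25230 genes of the deposited expression table, and all 9 were found. The rule is a list of names with no threshold on the values, but the list was drawn up with earlier results of these data known.

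The study concerns the mechanosensitive ion channel Piezo1 and the sensing of the fungus Candida albicans by macrophages. Poly(A) RNA was sequenced from bone marrow-derived macrophages (BMDMs), mouse marrow cells grown into macrophages with recombinant M-CSF, in 4 groups of 3 libraries: wild-type cells with PBS, wild-type cells with C. albicans, Piezo1 knockout cells with PBS and Piezo1 knockout cells with C. albicans. For the knockout group with PBS the titles say DMSO where the treatment label says PBS. The sources used here do not give the fungal dose, the time of exposure, the mouse strain and age, the allele or Cre line of the knockout, or whether the libraries of a group came from separate mice. The p-values therefore reflect the spread among these libraries alone, which may be technical.

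Values are in TPM, a share of each library's transcripts that is scaled to transcript length, so levels can be set side by side between genes. The libraries held 16400119 to 25741091 reads in genes. With PBS, Piezo1 averaged 135 ± 4.69 TPM in wild type and 65.4 ± 2.72 TPM in the knockout (SD, n = 3 each), so the knockout libraries still held transcripts of the targeted gene. All 9 macrophage markers examined exceeded 1 TPM, but their summed level differed between the groups. It was 25864 to 26426 TPM in wild type with PBS, 22031 to 23455 TPM in wild type with C. albicans, 15511 to 15750 TPM in the knockout with PBS and 16054 to 16165 TPM in the knockout with C. albicans, gaps made mostly by Lyz2, which encodes lysozyme. The 8 dendritic cell markers summed to 0.225 to 1.40 TPM per library, and the 8 neutrophil markers, of which Ly6g and S100a9 were at 0, to 2.21 to 8.14 TPM. Replicate 1 of the wild-type group with C. albicans stood apart: comparing read counts with the other 2 libraries of its group gave a chi-square of 15.3 to 16.2 per degree of freedom, against 1.49 to 4.60 for the other 10 replicate pairs. Results for Ccl2, Ccl7 and Ccl9 are therefore also given without it.

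At rest the 9 genes spanned more than 3 orders of magnitude. In wild-type macrophages with PBS, Ccl5 averaged 4028 TPM and ranked 19 of all 25230 genes by mean level. Ccl6 followed at 1102 TPM (rank 122), then Ccl9 at 266 TPM, Ccl3 at 146 TPM, Ccl4 at 138 TPM, Ccl7 at 38.5 TPM, Ccl2 at 33.3 TPM, Ccl12 at 6.08 TPM and Ccl22 at 0.871 TPM. The ranges of neighbours in this order did not overlap between libraries, except those of Ccl3 and Ccl4. So the constitutively high genes of these cells were Ccl5 and Ccl6, which together made up 89.1% ± 0.106 (SD, n = 3) of the 9 genes' summed TPM.

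**Figure D1:**
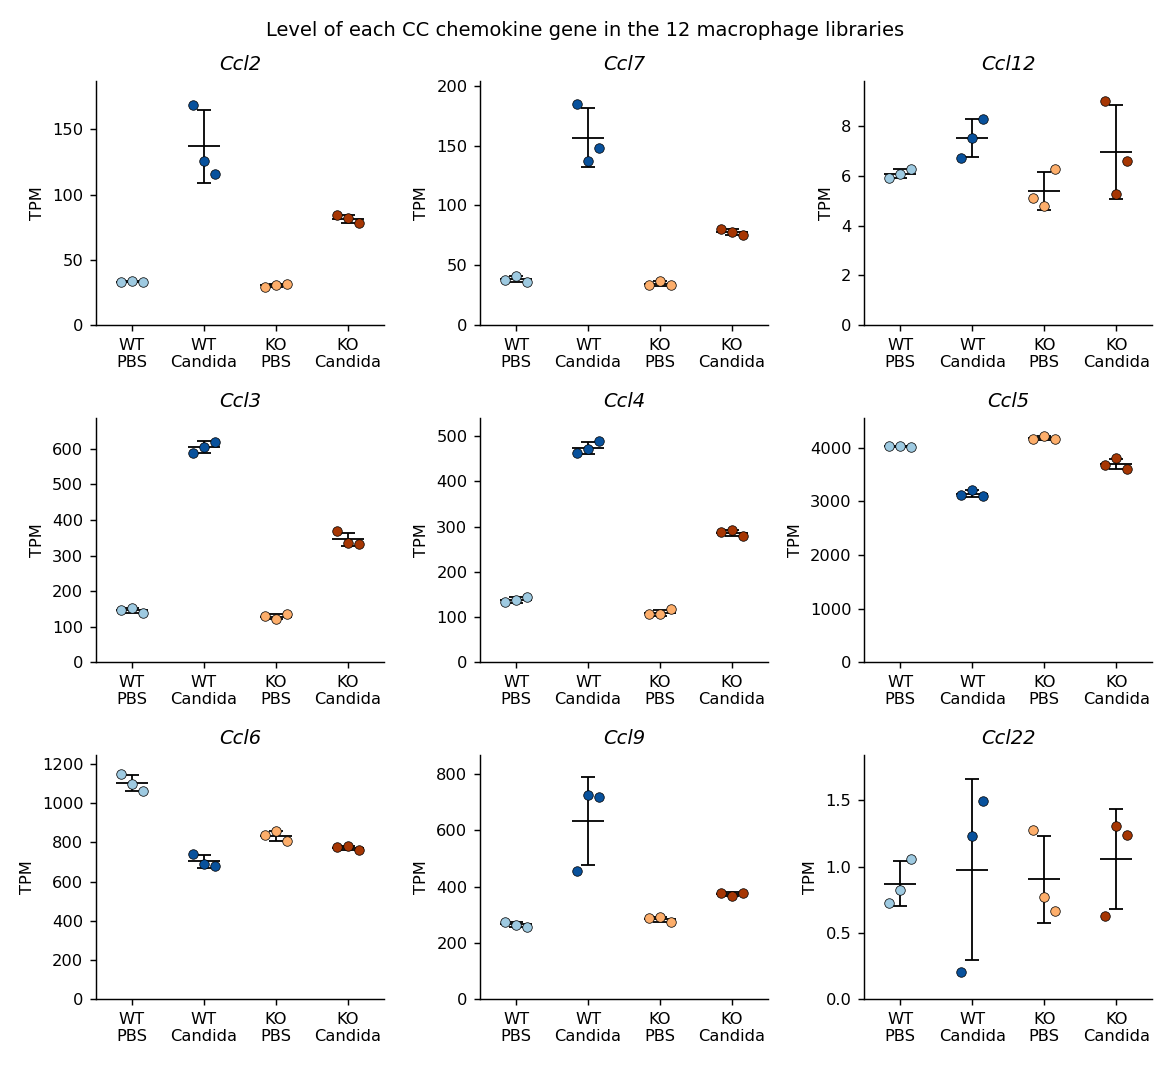
Level of each of the 9 genes in TPM (linear axis from 0, a separate scale per panel) in wild-type (WT) and Piezo1 knockout (KO) macrophages with PBS or C. albicans; each point is 1 library, the horizontal bar the mean and the error bar 1 SD (n = 3). Ccl2, Ccl3, Ccl4, Ccl7 and Ccl9 were highest in the wild-type cells with C. albicans, Ccl5 and Ccl6 were lowest there, and Ccl12 and Ccl22 passed the test in no comparison.

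The first question was which of the 9 genes respond to C. albicans in wild-type macrophages. Ccl2, Ccl3, Ccl4, Ccl7 and Ccl9 rose, Ccl5 and Ccl6 fell, and Ccl12 and Ccl22 did not pass the test. The test was limma on log2(TPM + 1), fitted over the 11283 genes that reached 1 TPM in at least 3 libraries, with an adjusted p (Benjamini-Hochberg) under 0.05 as the threshold, so a fold change understates the change of low genes. In bulk RNA, less RNA per cell and fewer cells expressing a gene cannot be told apart. All 9 genes passed that filter on low values. Across all tested genes 44.4% were called in this comparison, 16.1% higher and 28.3% lower, and the median difference was −0.07 on the log2 scale, against 1.22 for the 9 genes. Calls were thus common in this comparison, and 7 of 9 is to be read against that share.

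Of the 3 Ccr2 ligands, Ccl2 and Ccl7 rose and Ccl12 did not pass the test. Ccl2, the best known monocyte attractant, stood at 33.4, 33.5 and 32.9 TPM in the 3 wild-type libraries with PBS and at 169, 126 and 116 TPM with C. albicans. The groups were far apart, and replicate 1 was the highest of the treated libraries. This was a 3.97-fold rise, with a log2 difference of 1.99 ± 0.10 (SE; limma adjusted p = 9.5e-09), or 1.83 without replicate 1. Ccl7, which shares receptors with Ccl2, went from 38.0, 41.3 and 36.3 TPM to 184, 137 and 148 TPM. Its rise was 3.96-fold, a log2 difference of 1.98 ± 0.09 (SE; limma adjusted p = 2.6e-09), or 1.86 without replicate 1. Ccl2 and Ccl7 kept nearly the same proportion to each other, with a ratio of Ccl2 to Ccl7 of 0.865 ± 0.0482 with PBS and 0.872 ± 0.0773 with C. albicans (SD, n = 3 each). By size of rise they ranked 58 and 60 among the 11283 genes tested.

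Ccl12, the remaining Ccr2 ligand and a close relative of Ccl2, behaved differently. It stood at 5.91, 6.08 and 6.26 TPM with PBS and at 6.74, 7.54 and 8.28 TPM with C. albicans. Although these ranges did not touch, the log2 difference of 0.26 (95% interval −0.05 to 0.57) did not pass the test (limma adjusted p = 0.156), and groups that do not overlap were seen for 50.9% of all tested genes in this comparison. Ccl12 rested on 24 to 47 reads per library, so a modest difference was not detectable at this depth. Even the upper end of its interval lay below the rise of Ccl2.

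Ccl3, Ccl4 and Ccl5 did not move together. Ccl3, which attracts monocytes, T cells and other leukocytes, was at 146, 154 and 138 TPM with PBS and at 589, 606 and 621 TPM with C. albicans. That 4.13-fold rise, a log2 difference of 2.05 ± 0.05 (SE; limma adjusted p = 1.4e-11), ranked 51 among all tested genes. The rises of Ccl3, Ccl2 and Ccl7 were too close to order: Ccl2 (2.10) exceeded Ccl3 (2.03) without replicate 3 of the treated group, and Ccl7 (2.07) exceeded Ccl3 (2.05) without replicate 2. Ccl4, its neighbour on the chromosome, rose from 132, 137 and 144 TPM to 462, 472 and 489 TPM, a log2 difference of 1.78 ± 0.05 (SE; limma adjusted p = 1.4e-11). Ccl5, in contrast, was at 4037, 4028 and 4019 TPM with PBS and at 3112, 3215 and 3103 TPM with C. albicans. The most abundant of the 9 genes therefore fell, by 0.36 on the log2 scale (SE 0.02; limma adjusted p = 1.3e-07), and still exceeded every other member by at least 4.48-fold in the mean. Although Ccl5 is usually described as inducible, in these cells it was high without the fungus.

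The Ccr1 ligands Ccl6 and Ccl9 moved in opposite directions. Ccl6 fell from 1146, 1099 and 1061 TPM to 739, 690 and 677 TPM, and the 2 groups did not overlap. It dropped by 0.65 on the log2 scale (SE 0.04; limma adjusted p = 3.9e-08), and ranked 292 of the 11283 tested genes counted from the largest fall. Ccl9 rose from 276, 263 and 258 TPM to 454, 726 and 719 TPM, with replicate 1 the lowest of the treated libraries. Its log2 difference was 1.22 ± 0.13 (SE; limma adjusted p = 1.1e-05), and 1.44 without replicate 1. The ratio of Ccl6 to Ccl9 was 4.15 ± 0.0349 with PBS and 1.17 ± 0.394 with C. albicans (SD, n = 3 each), so a transcript that had been clearly the scarcer of the pair came to overlap the other's range. With C. albicans, Ccl9 was below Ccl6 in replicate 1 (454 against 739 TPM). It was above Ccl6 in replicate 2 (726 against 690 TPM) and replicate 3 (719 against 677 TPM).

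Ccl22 was close to the limit of detection, at 0.728, 0.825 and 1.06 TPM with PBS and 0.206, 1.23 and 1.50 TPM with C. albicans, from 3 to 27 reads per library over all 4 groups. Its log2 difference of 0.02 had a 95% interval of −0.54 to 0.57 and did not pass the test (limma adjusted p = 0.965). The markers examined beside it of dendritic cells, which are known to make much Ccl22, were low as given above. Cd209a was at 0 in every library, and Ccr7, the highest of the list, reached at most 1.24 TPM. A link between these markers and the level of Ccl22 was not tested.

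The authors' deposited table gives log2 fold changes that match the wild-type comparison, with values of 2.12 for Ccl2, 2.14 for Ccl3, 1.86 for Ccl4, −0.28 for Ccl5, −0.57 for Ccl6, 2.10 for Ccl7 and 1.34 for Ccl9. In the authors' deposited table Ccl12 (0.39) and Ccl22 (0.26) had adjusted p-values of 0.398 and 0.772. Each of the 9 had the same direction there as in the fit to TPM.

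The sum of the 9 genes stayed in a narrow range while its makeup changed. The summed level was 5758 ± 59.8 TPM in wild-type cells with PBS and 5860 ± 133 TPM with C. albicans (SD, n = 3 each), 0.576% and 0.586% of the library. Scaled by median ratios, the 2 sums were 5425 and 5841 TPM. Ccl5 and Ccl6 together went from 5130 to 3846 TPM in the mean, while Ccl2, Ccl3, Ccl4, Ccl7 and Ccl9 together went from 621 to 2006 TPM. The share of these 5 genes in the sum went from 10.8% ± 0.109 to 34.2% ± 1.55, and that of Ccl5 from 70.0% ± 0.569 to 53.6% ± 0.844 (SD, n = 3 each). In the knockout the sum was 5609 ± 58.5 TPM with PBS and 5638 ± 117 TPM with C. albicans, but the share of the 5 genes went only from 10.5% ± 0.156 to 20.7% ± 0.502, and that of Ccl5 from 74.6% ± 0.154 to 65.5% ± 0.611. The shares in the 2 groups with C. albicans did not overlap between genotypes, and neither did the levels of 49.3% of all tested genes.

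**Figure D2:**
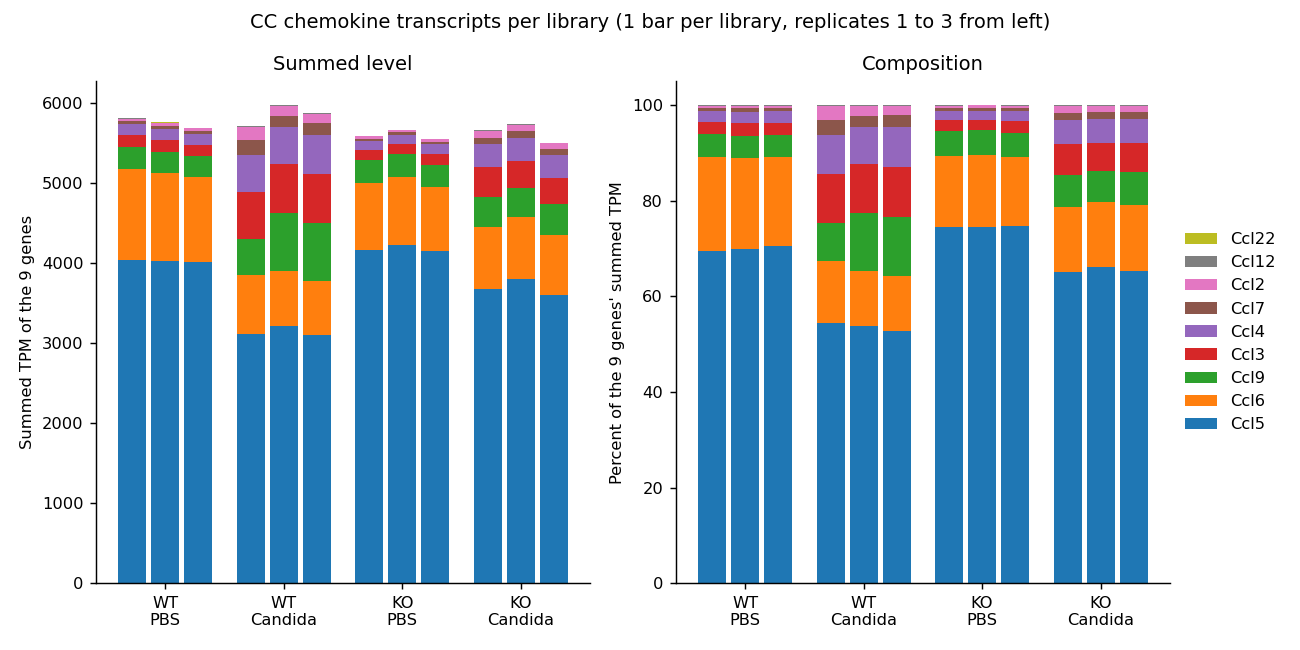
Summed TPM of the 9 genes (left) and the percent of that sum held by each gene (right), with 1 bar per library and the 3 replicates of a group side by side. The bars on the left reach 5510 to 5981 TPM in all 12 libraries, while on the right Ccl5 takes 53.6% on average in wild-type cells with C. albicans and 65.5% in knockout cells with C. albicans.

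The next question was whether the same genes respond in Piezo1 knockout macrophages. With C. albicans, Ccl2, Ccl3, Ccl4 and Ccl7 rose, Ccl5 fell, and Ccl6, Ccl9, Ccl12 and Ccl22 did not pass the test. Over all tested genes 7.08% were called, 3.94% higher and 3.14% lower, so the 4 of 9 called higher stand against a lower background than in wild type. The median difference was 0.39 for the 9 genes and −0.04 for all tested genes.

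Ccl2 went from 29.0, 31.0 and 31.4 TPM to 84.4, 81.9 and 78.2 TPM in the knockout, a 2.62-fold rise (log2 difference 1.39, limma adjusted p = 1.4e-06). Ccl7 went from 33.6, 37.0 and 33.5 TPM to 80.0, 77.7 and 74.9 TPM (log2 difference 1.14, limma adjusted p = 2.5e-06). Every treated knockout library lay above every knockout library with PBS for both genes and below every treated wild-type library. Groups without overlap were common: 33.0% of tested genes in the knockout response and 49.3% between genotypes with C. albicans. Ccl3 rose from 129, 121 and 135 TPM to 368, 335 and 333 TPM (log2 difference 1.42, limma adjusted p = 1.6e-09). Ccl4 rose from 106, 106 and 117 TPM to 287, 293 and 278 TPM (log2 difference 1.38, limma adjusted p = 5.4e-10). These 4 genes ranked 52 to 78 by size of rise among the 11283 genes, against 51 to 87 in wild type.

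Ccl5 fell in the knockout from 4167, 4226 and 4156 TPM to 3683, 3800 and 3601 TPM, by 0.18 on the log2 scale (limma adjusted p = 3.5e-04). Ccl6 stood at 835, 856 and 805 TPM with PBS and 776, 779 and 759 TPM with C. albicans, ranges that did not overlap, yet its log2 difference of −0.11 missed the threshold (limma adjusted p = 0.106). Ccl9 stood at 288, 292 and 275 TPM with PBS and 376, 366 and 379 TPM with C. albicans, and its log2 difference of 0.39 (95% interval 0.11 to 0.67) missed it too (limma adjusted p = 0.0905). Groups without overlap were seen for 33.0% of tested genes in this comparison. Both calls depended on how the spread was estimated: with the knockout libraries alone, which leaves out the scattered wild-type group, Ccl6 (adjusted p = 0.0236) and Ccl9 (adjusted p = 2.3e-05) passed limma's test. Ccl12 had values of 5.12, 4.80 and 6.27 TPM with PBS and 9.02, 5.28 and 6.61 TPM with C. albicans, and Ccl22 had 1.28, 0.770 and 0.668 TPM against 0.625, 1.31 and 1.24 TPM, with overlapping groups for both.

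The difference between the 2 responses was then tested directly, as the interaction of genotype and treatment. The response was smaller in the knockout for all 7 genes that had responded in wild type: the rises of Ccl2, Ccl3, Ccl4, Ccl7 and Ccl9 were smaller, and the falls of Ccl5 and Ccl6 were smaller. The knockout response and the interaction use the knockout libraries with PBS, whose titles say DMSO. A possible difference of vehicle therefore cannot be told apart from the fungus in that response, or from genotype in the interaction. For Ccl6 the knockout differed from wild type by −0.41 with PBS and by 0.14 with C. albicans, so most of its interaction lay in the PBS groups. Over all tested genes 13.9% were called in the interaction, 7.52% with a higher and 6.33% with a lower response in the knockout. The median was −0.40 for the 9 genes and 0.02 for all tested genes, a value in which smaller rises and smaller falls have opposite signs. Over all tested genes 44.4% were called in the wild-type response and 7.08% in the knockout response, so fewer calls in the knockout were not particular to the 9. The 7 genes were picked by their wild-type response, which is part of the interaction, so a smaller knockout response among them was favoured in advance. These 7 calls kept their direction and their side of the threshold under all 19 alternative settings.

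On the log2 scale the difference in response was −0.85 ± 0.13 for Ccl7 (SE; limma adjusted p = 8.8e-04) and −0.83 ± 0.18 for Ccl9 (SE; limma adjusted p = 0.0106). For Ccl3 it was −0.63 ± 0.07 (SE; limma adjusted p = 1.7e-04), and for Ccl2 −0.60 ± 0.14 (SE; limma adjusted p = 0.0157). For Ccl4 it was −0.40 ± 0.06 (SE; limma adjusted p = 0.0015). Among the falling genes the difference was 0.54 ± 0.05 for Ccl6 (SE; limma adjusted p = 4.6e-05) and 0.18 ± 0.03 for Ccl5 (SE; limma adjusted p = 0.0039). Without replicate 1 of the treated wild-type group the values were −0.44 for Ccl2, −0.72 for Ccl7 and −1.05 for Ccl9. For Ccl12 the interaction was 0.03 (95% interval −0.41 to 0.48) and for Ccl22 it was 0.09 (95% interval −0.69 to 0.87), too wide to place either gene with or apart from the others.

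In plain TPM, the knockout's change was 49.3% ± 13.9 of the wild-type change for Ccl2, 47.2% ± 4.89 for Ccl3, 52.4% ± 3.72 for Ccl4 and 55.2% ± 12.7 for Ccl5 (± SD propagated from the 4 groups of 3). It was 36.3% ± 8.14 for Ccl7, 24.2% ± 10.7 for Ccl9 and 15.2% ± 7.28 for Ccl6. The order of these percentages was not tested. Without replicate 1 of the treated wild-type group they were 58.3% for Ccl2, 41.2% for Ccl7 and 19.4% for Ccl9. The ratio of Ccl2 to Ccl7, below 1 in the other 3 groups, was 1.05 ± 0.00622 (SD, n = 3) in treated knockout cells.

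**Figure D3:**
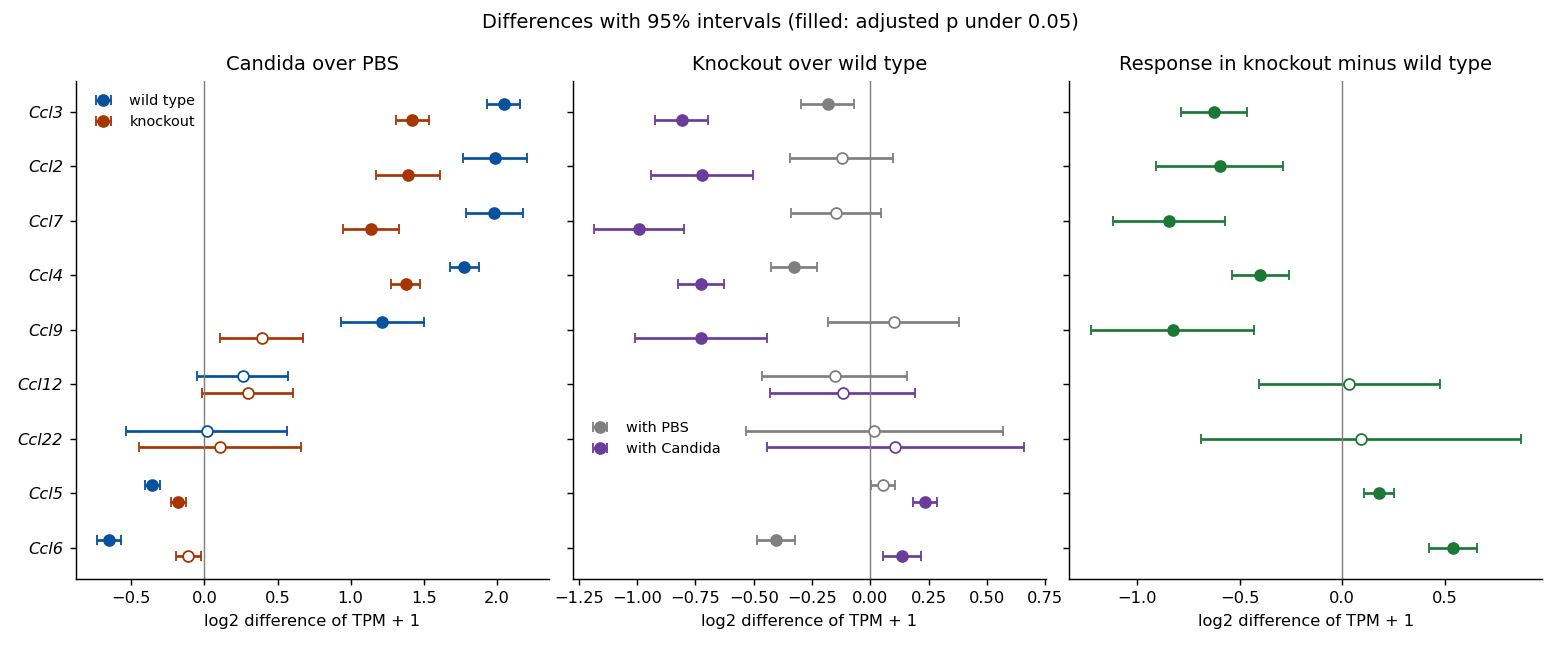
Log2 differences of TPM + 1 with 95% intervals from limma for each gene: C. albicans over PBS in each genotype (left), knockout over wild type under each treatment (middle) and the difference between the responses (right); filled points passed an adjusted p of 0.05. The 5 rising genes lie left of 0 on the right panel and the 2 falling genes right of 0, with Ccl12 and Ccl22 spanning 0.

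In the libraries with PBS, knockout and wild-type macrophages differed in 3 of the 9 genes. The titles of these knockout libraries say DMSO, so a possible difference of vehicle cannot be told apart from genotype here. Ccl6, Ccl4 and Ccl3 were lower in the knockout with PBS, none was higher, and 6 did not pass the test. The background in this comparison was 32.3% of tested genes called, 6.14% higher and 26.1% lower, so 3 of 9 lower is near it, and groups did not overlap for 46.1% of tested genes. Ccl6 was lower by 0.41 on the log2 scale (that is, −0.41; limma adjusted p = 1.3e-05) and Ccl4 had a difference of −0.33 (limma adjusted p = 2.0e-04). The difference of −0.18 for Ccl3 (limma adjusted p = 0.0177) lost its call after scaling by median ratios (−0.08, adjusted p = 0.261) or by upper quartiles (−0.11, adjusted p = 0.149). It also lost it without replicate 2 of wild type with PBS (adjusted p = 0.0802) or replicate 2 of the knockout with PBS (adjusted p = 0.0816). Ccl5 had a difference of 0.05 (limma adjusted p = 0.0994), which passed as higher after either scaling (0.15 and 0.13) and reached −0.07 when a trend with transcript length was removed. Ccl2 (−0.12), Ccl7 (−0.15) and Ccl9 (0.10) did not pass the test at rest.

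With C. albicans present, 7 of the 9 genes differed between genotypes. Ccl2, Ccl3, Ccl4, Ccl7 and Ccl9 were lower in the knockout, Ccl5 and Ccl6 were higher, and Ccl12 and Ccl22 did not pass the test. The background was 39.9% called, 12.4% higher and 27.5% lower. Ccl7 averaged 77.5 TPM in the knockout against 156 TPM in wild type, a log2 difference of −0.99 (limma adjusted p = 3.5e-06). The differences were −0.81 for Ccl3, −0.73 for Ccl4, −0.73 for Ccl9 and −0.72 for Ccl2 (limma adjusted p from 2.6e-07 to 7.2e-04). The order of these genes depended on replicate 1 of the treated wild-type group: without it the differences were −0.95 for Ccl9, −0.87 for Ccl7, −0.83 for Ccl3, −0.75 for Ccl4 and −0.56 for Ccl2. Ccl5 was higher by 0.23 (limma adjusted p = 9.8e-06). Ccl6 changed its order between genotypes: lower in the knockout at rest, it was higher by 0.14 with C. albicans (limma adjusted p = 0.0127). That last call was lost when the length trend was removed (0.05, adjusted p = 0.289) or without replicate 3 of the treated wild-type group (0.11, adjusted p = 0.0563).

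The neutrophil marker S100a8 moved with the rising genes in wild type, from 2.06 to 6.68 TPM in the mean, and not in the knockout (4.51 and 3.54 TPM). Other markers moved with the falling genes Ccl5 and Ccl6. The 4 B cell markers summed to 2.09 to 2.68 TPM in wild type with PBS and 0.159 to 0.471 TPM with C. albicans, against 0.900 to 1.16 and 0.558 to 1.40 TPM in the knockout. The 1 of them that was tested, Cd79a, had a log2 difference of −0.97 in wild type (limma adjusted p = 0.0018) and an interaction of 0.96 (limma adjusted p = 0.0414). The mast cell marker Cpa3, with the other 3 markers of its list at 0, had −0.42 (limma adjusted p = 0.0373) and an interaction of 0.91 (limma adjusted p = 0.0141). Of the 9 macrophage markers 5 were lower and 1 higher in the knockout with PBS, against 26.1% and 6.14% of all tested genes. With C. albicans 5 were lower and 3 higher in the knockout, against 27.5% and 12.4%. In the wild-type response 6 of the 9 fell and 1 rose, against 28.3% and 16.1%. In the knockout response 0 fell and 2 rose, against 3.14% and 3.94%. In the interaction 5 were higher and 1 lower, against 7.52% and 6.33%. Lyz2 had −0.28 in wild type and an interaction of 0.33, Mrc1 −0.66 and 0.66, and Mertk −0.93 and 0.77 (limma adjusted p from 7.1e-07 to 0.0302), the same signs as Ccl5, Ccl6 and Ccl8. Cd14, the marker that rose, had 0.83 and −0.50 (limma adjusted p = 7.8e-06 and 0.0159), the same signs as the rising genes. Cd68 (0.08) and Itgam (−0.02) were not called in the wild-type response. Itgam rose in the knockout response (0.43, limma adjusted p = 2.2e-06) and had an interaction of 0.45 (limma adjusted p = 6.8e-05). The interaction of Cd68 (−0.11) did not pass (limma adjusted p = 0.145). Cd4, of the T cell list, did not pass in wild type (−0.21, limma adjusted p = 0.0771) but had an interaction of 0.64 (limma adjusted p = 0.0050). The part of other cells, and of the macrophage markers' change, in the chemokine differences was not tested. How the calls over all genes divided between higher and lower depended on the scaling. As deposited, 36.2% of the called genes were higher in the wild-type response, against 55.5% after scaling by median ratios. The corresponding values were 55.7% and 78.0% for the knockout response, 19.0% and 50.2% for the genotypes at rest, 31.1% and 46.9% with C. albicans, and 54.3% and 41.2% for the interaction. Apart from Ccl5, Ccl22 and Ccl12, no member changed direction under any alternative run.

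The 9 genes were next compared by place in the genome. All but Ccl22 lie on chromosome 11 in 2 clusters, by RefSeq positions on GRCm38, the assembly also called mm10. The first cluster holds Ccl2 at chr11:82035577-82037452, Ccl7 at chr11:82045712-82047525 and Ccl12 at chr11:82101845-82103399. The second holds Ccl5 at chr11:83525778-83530518, Ccl9 at chr11:83572917-83578636, Ccl6 at chr11:83587886-83593087, Ccl3 at chr11:83647843-83649378 and Ccl4, for which GENCODE gives chr11:83662584-83664683. Ccl22 is at chr8:94745684-94751388. RefSeq's longer span of Ccl4 begins within Ccl3 on the opposite strand, whereas the GENCODE exons of the 2 genes share 0 bases. The strand used in counting is unknown, and an exchange of reads between them was not tested. Neighbours did not always move together: Ccl2 and Ccl7, 8259 bases apart, rose alike, whereas Ccl9 and Ccl6, 9249 bases apart and both on the minus strand, went in opposite directions. In the first cluster the order of response ran from Ccl2 and Ccl7 over Ccl12 to Ccl8, which is not among the 9 and fell.

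**Figure D4:**
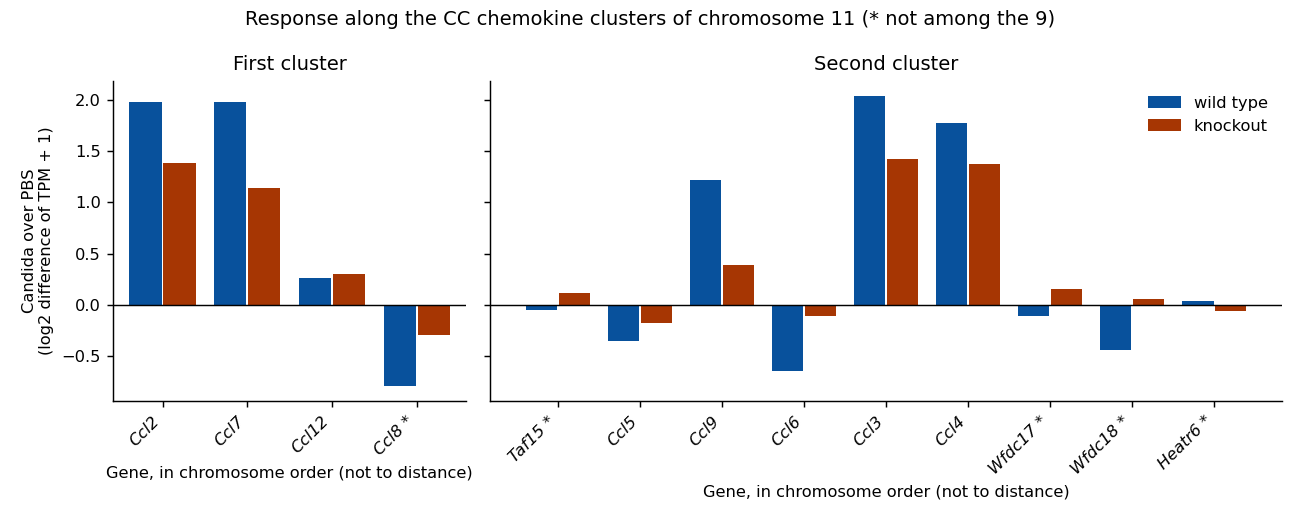
Log2 difference of TPM + 1 between C. albicans and PBS in wild-type and knockout macrophages for each tested gene of the 2 clusters on chromosome 11, in chromosome order and not to distance; an asterisk marks genes outside the 9. Bars reach 1.99 for Ccl2 and 2.05 for Ccl3 in wild type, Ccl9 and Ccl6 point in opposite directions side by side, and knockout bars are shorter than wild-type bars for the 7 responding genes.

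Promoter sequences from RefSeq (GRCm38.p6) were matched for 5 of the 9 genes, Ccl3, Ccl6, Ccl9, Ccl12 and Ccl22. Those of Ccl9, Ccl6 and Ccl3 are shown because these genes of the second cluster and the same strand rose, fell and rose in turn. Each is the 250 bases before the annotated start, 5′ to 3′ on the gene's own strand, at chr11:83578637-83578886, chr11:83593088-83593337 and chr11:83649379-83649628, and capitals mark matches to any of 3 motifs searched on both strands.
Ccl9: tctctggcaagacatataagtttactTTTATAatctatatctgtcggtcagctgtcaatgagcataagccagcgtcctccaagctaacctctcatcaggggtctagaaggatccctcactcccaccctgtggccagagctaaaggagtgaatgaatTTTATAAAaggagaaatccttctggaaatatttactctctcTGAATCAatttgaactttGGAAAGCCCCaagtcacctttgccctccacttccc
Ccl6: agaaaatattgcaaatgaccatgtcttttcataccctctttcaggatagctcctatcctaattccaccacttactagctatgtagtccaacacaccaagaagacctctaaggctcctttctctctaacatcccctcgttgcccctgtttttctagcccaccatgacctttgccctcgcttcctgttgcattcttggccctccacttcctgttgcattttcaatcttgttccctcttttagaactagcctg
Ccl3: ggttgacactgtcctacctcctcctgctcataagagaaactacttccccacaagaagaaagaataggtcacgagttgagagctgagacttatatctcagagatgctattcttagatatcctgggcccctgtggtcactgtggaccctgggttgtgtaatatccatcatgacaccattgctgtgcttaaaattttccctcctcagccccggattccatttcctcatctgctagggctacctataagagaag
The motifs were the NF-kB consensus, the AP-1 site TGANTCA and the TATA element TATAAA. In windows of the same length before 32851 promoters, 3.90%, 6.75% and 12.4% held them. Only the Ccl9 window of the 3 held a match, to NF-kB at −35 to −26 from the start (minus strand) and to AP-1 at −53 to −47. That window also matched TATAAA at −224 to −219 and −94 to −89 (both minus strand) and at −92 to −87 (plus strand), the last 2 overlapping. The windows of Ccl6 and Ccl3 held none of these letters, although Ccl3 rose 4.13-fold, and Ccl22 also held none. Ccl12 held TATAAA at −31 to −26. These matches describe the letters in the windows and are not evidence of binding.

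Over the 12 libraries, log2(TPM + 1) of Ccl2, Ccl3, Ccl4 and Ccl7 moved together, with Pearson r from 0.980 to 0.995 between pairs, and Ccl9 followed them less closely (r from 0.857 to 0.911). Ccl5 ran opposite to these 4 (r from −0.977 to −0.949), and Ccl6 did so more loosely (r from −0.751 to −0.711). These values describe 4 groups of 3 libraries and rest mostly on the group differences given above. The genes outside the 9 whose pattern was most like a member's, among those averaging at least 5 TPM, were Tnfaip3 (r = 0.996), Zc3h12a and Nfkbie for Ccl2 and Gem (r = 0.996), Sdc4 and Gm6377 for Ccl3. They were Tlr2 (r = 0.995), Sdc4 and Nlrp3 for Ccl4, and Dusp4 (r = 0.993), Kcnj2 and Ralgds for Ccl7. Ccl9 had other nearest genes, Txnrd1 (r = 0.992), Slc7a11 and Tpm4. The falling genes were closest to Maoa (r = 0.987), Zfp219 and Ifi30 for Ccl5 and to Sp140 (r = 0.978), Samhd1 and Sec22c for Ccl6. Ccl12 and Ccl22 reached only 0.799 (Eif6, then Pfdn2 and Mier3) and 0.780 (Ndufa1), respectively.

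The rest of the CC ligand family was mostly silent in these cells. Of 14 other CC ligand genes 13 were in the table and 4 passed the filter on low values. In the wild-type response 2 of the 4 fell and 2 did not pass, where 28.3% of all tested genes were called lower. Ccl8, a ligand abundant in these macrophages, fell from 421 ± 4.94 to 242 ± 11.03 TPM in wild type (SD, n = 3 each; log2 difference −0.80, limma adjusted p = 9.5e-09). In the knockout it fell from 359 ± 15.4 to 291 ± 9.96 TPM (SD, n = 3 each; log2 difference −0.30, limma adjusted p = 4.4e-04), and the interaction of 0.50 passed the test (limma adjusted p = 1.5e-04). Ccl8 thus sat with Ccl5 and Ccl6 as a high gene that fell less in the knockout. Ccl28 fell in wild type from 1.57 to 0.477 TPM (limma adjusted p = 0.0021), with no call in the knockout or the interaction (limma adjusted p = 0.0947). Ccl25 and Ccl27a passed in no comparison, and Ccl11, Ccl19, Ccl20, Ccl21a, Ccl21b and Ccl26 were listed at 0 in every library.

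Of 10 CC receptor genes examined 2 passed the filter. In the wild-type response both rose, where 16.1% of all tested genes were called higher. Both were called in the interaction, where 13.9% of all tested genes were. Ccr3, best known as the eotaxin receptor, went from 13.1 to 23.7 TPM in wild type and from 11.9 to 15.1 TPM in the knockout, with an interaction of −0.48 (limma adjusted p = 0.0116). Ccr1, the receptor of Ccl6 and Ccl9 among others, had a log2 difference of 0.21 in wild type and −0.29 in the knockout (limma adjusted p = 0.0375 and 0.0343), and both calls were lost under several alternatives, though the interaction of −0.49 was not (limma adjusted p = 0.0080). Ccr2, the receptor of Ccl2, Ccl7 and Ccl12, averaged 0.359 to 1.01 TPM per group and was not tested.

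Among the 5 atypical receptors, which bind chemokines or related ligands without the usual signalling, 1 passed the filter. Ccrl2, known to bind chemerin, rose from 70.0 to 224 TPM in wild type (log2 difference 1.66, limma adjusted p = 8.5e-10) and from 73.3 to 161 TPM in the knockout (log2 difference 1.12, limma adjusted p = 1.6e-07). Its interaction was −0.54 (limma adjusted p = 0.0025), of the same sign as that of the rising ligands.

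**Figure D5:**
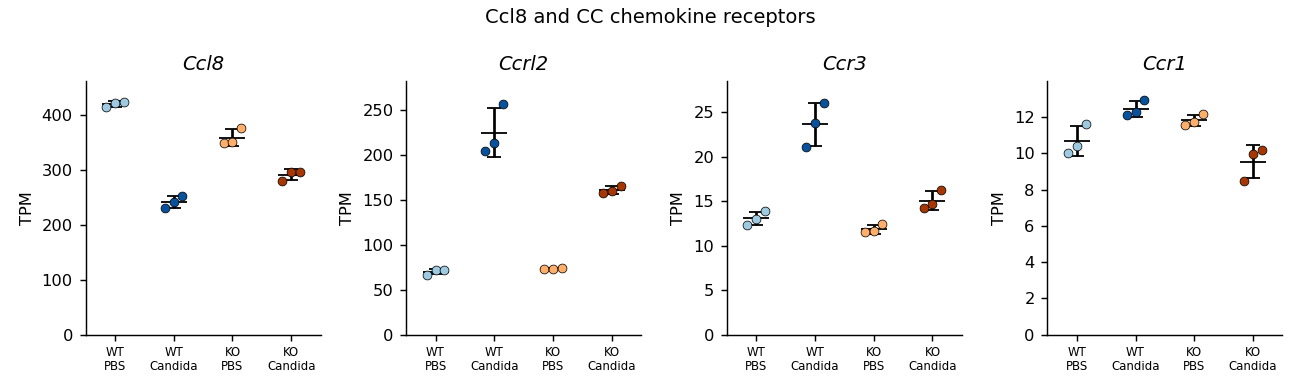
Level in TPM (linear axis from 0, a separate scale per panel) of Ccl8 and of 3 receptor genes that passed the filter; points are the 3 libraries of a group in order of value, the bar is the mean and the error bar 1 SD. Ccrl2 and Ccr3 were highest in wild-type cells with C. albicans, at 224 and 23.7 TPM, while Ccl8 was highest in wild-type cells with PBS, at 421 TPM.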

How the data were processed

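Poly(A) RNA of 12 BMDM libraries was measured in 1 table. The submitters' processing notes name the mm10 genome and the tools DESeq2 1.34.0, STAR 2.7.5a, CASAVA 1.8 and cutadapt 2.6. The read counter and its strand setting are unstated in the labels and file headers. The authors deposited TPM per library. They also deposited a mean signal over all libraries (baseMean). For 1 comparison they gave a log2 fold change and its error, a Wald score, and raw and adjusted p-values, per the file headers. That comparison matched wild type with C. albicans over PBS (median absolute log2 difference 0.000946 over 9298 genes). Reads per gene were worked back from the TPM and the mean signal, and 100% of 171648 values above 0 came within 0.01 of a whole read. They give the depth and underlie the chi-square between replicates, the match to the deposited comparison and the simulated data. The relative transcript lengths used for the length trend came from the same step. No pair of replicates agreed within sampling noise.

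Differences were tested on log2(TPM + 1) with limma 3.58.1 (R 4.3.3), using 4 group means, all 12 libraries, a variance trend and no replicate block. Tested were the 11283 of 25230 genes that reached 1 TPM in 3 or more libraries. P-values are two-sided and Benjamini-Hochberg adjusted over all tested genes, with a threshold of 0.05. The test was also run on simulated data, with no outcome given here. Those data had the same spread for every gene and no library set apart. They therefore do not cover the scatter from replicate 1 of the treated wild-type group. TPM are shares of a library, so a change in abundant genes shifts the others. The alternatives were another pseudocount (0.1), no filter, median-ratio and upper-quartile scaling, no variance trend, a replicate block, removal of a trend with transcript length, fits with only the libraries compared, and leaving out each replicate.

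Named are all 9 genes, Piezo1, every gene of the other ligand and receptor lists that passed the filter, and for each of the 9 up to 3 most alike genes; some genes that this rule names are not reported here. S100a8, Cd79a, Cpa3, Lyz2, Mrc1, Mertk, Cd14, Cd68, Itgam and Cd4 were named after their values were seen. The 9 genes and the lists were chosen with earlier results of these data known. Marker lists of other cells had sums per library of 7.28 to 17.7 TPM for T cells (with Cd3e at 0), 0.159 to 2.68 TPM for B cells, 0.763 to 2.18 TPM for mast cells and basophils, and 1.24 to 2.40 TPM for stromal cells. Genes sharing 50-base stretches with another gene could be miscounted: among the 9 only Ccl9 did, for 1.97% of its windows.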

Additional observations from a re-analysis of the deposited data

Results flagged for a closer look

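The responses of 11 genes of the family differed between genotypes by the interaction test. The family genes tested were the 9 genes, 4 other CC ligand genes, 2 CC receptor genes and 1 atypical receptor gene. Over all 11283 tested genes 13.9% were called in the interaction. The wild-type response is part of the interaction, so a smaller knockout response was favoured in advance among genes called in wild type. Each value below is the knockout response less the wild-type response (log2 of TPM + 1), with its adjusted p from limma. The rises of Ccl2 (−0.60, adjusted p = 0.0157), Ccl3 (−0.63, adjusted p = 1.7e-04), Ccl4 (−0.40, adjusted p = 0.0015), Ccl7 (−0.85, adjusted p = 8.8e-04) and Ccl9 (−0.83, adjusted p = 0.0106) were smaller in the knockout. The same held for the rises of the receptor genes Ccr3 (−0.48, adjusted p = 0.0116) and Ccrl2 (−0.54, adjusted p = 0.0025). The falls of Ccl5 (0.18, adjusted p = 0.0039), Ccl6 (0.54, adjusted p = 4.6e-05) and Ccl8 (0.50, adjusted p = 1.5e-04) were smaller in the knockout. Ccr1 (−0.49, adjusted p = 0.0080) had responses of opposite sign in the 2 genotypes.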

How the results depend on the processing

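The 7 interaction calls of the 9 genes kept direction and call in all 19 alternatives, with adjusted p up to 0.0446. The replicate numbers did not pair the libraries: 18 same-numbered pairs had correlations of −0.0874 to 0.0871. With the replicate block 1418 genes were called in the interaction, against 1563 without it, and 7 of the 9 in both fits.

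In the knockout response 799 genes were called. This was 1440 (781 lower, and 2 of the 9 lower) with the knockout libraries alone, and 420 to 625 (98 to 258 lower) when 1 replicate was left out, where the main fit had 354 lower. The lower count was 234 without the filter, 172 with median-ratio scaling and 188 with the length trend removed. In the wild-type response the lower count was 3192, and 2066 with median-ratio scaling. Between genotypes with PBS, 693 genes were higher and 2948 lower, against 1606 and 1595 with median-ratio and 1293 and 1853 with upper-quartile scaling. With the length trend removed 1803 were called there in all, 996 of them lower. Between genotypes with C. albicans, 1402 genes were higher, against 2172 with median-ratio and 2468 with upper-quartile scaling. Leaving out 1 replicate gave 1036 to 2526 calls in the interaction, with 546 to 1473 higher against 849; the 2526 came without replicate 1 of wild type with C. albicans.

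Of the 9 genes, 0 were higher in the knockout with PBS, against 1 (Ccl5) with either scaling or the compared libraries alone. With C. albicans 2 were higher, against 1 with the length trend removed, and 1 to 2 when 1 replicate was left out. The summed TPM of the 9 was 5425 (median-ratio) and 5578 (upper-quartile) in wild type with PBS, 5723 (upper-quartile) in the knockout with PBS, and 5863 and 5834 in the knockout with C. albicans.

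Values that changed sign were small and missed the threshold before and after, and the cause was not tested. With the length trend removed, Ccl5 between genotypes with PBS was −0.067 and Ccl27a was 0.019. Ccl27a between genotypes with C. albicans was 0.017 (median-ratio), 0.025 (upper-quartile) and 0.064 (length trend removed), and −0.081 to 0.033 with 1 replicate left out. Ccl22 in the wild-type response was −0.15 with a pseudocount of 0.1. With 1 replicate left out, Ccl22 ranged from −0.19 to 0.34 in the wild-type response, −0.12 to 0.11 between genotypes with PBS, −0.21 to 0.31 with C. albicans and −0.23 to 0.29 in the interaction. Ccl12 likewise ranged from −0.30 to 0.040 between genotypes with C. albicans and −0.14 to 0.19 in the interaction. Ccl25 in the wild-type response was 0.057 (median-ratio), 0.0016 (upper-quartile) and 0.054 (length trend removed), and −0.20 to 0.14 with 1 replicate left out. In the knockout response Ccl25 was 0.030, 0.012 and 0.017 in the same order, and −0.13 to 0.10. Its interaction was −0.0020 (pseudocount 0.1), −0.027 (median-ratio) and −0.037 (length trend removed), and −0.14 to 0.20, and between genotypes with PBS it was −0.32 to 0.018. Piezo1 in the knockout response was 0.031 (median-ratio), 0.0084 (upper-quartile) and 0.013 (length trend removed), and −0.046 to 0.011 with 1 replicate left out. Piezo1 ranged from −0.029 to 0.049 in the wild-type response and −0.068 to 0.017 in the interaction.

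Depth limits what can be said of Ccl12 and Ccl22, with 24 to 47 and 3 to 27 reads per library.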
